A study of Homo sapiens with 6 samples.

Results

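The sites described here were 555 TET2 peaks called in OPA1-treated THP-1 cells and not called in DMSO-treated cells, all deep inside protein-coding genes. A peak was taken when it lay on chromosomes 1 to 22 or X of the TET2 list in OPA1 and shared no base with any TET2 peak in DMSO. Its centre also had to lie inside a protein-coding gene and more than 10000 bp from both ends of every protein-coding gene. The 555 peaks were 36.68% (Wilson 95% interval 34.29 to 39.14%) of the 1513 OPA1-only TET2 peaks on these chromosomes, in a list of 1687 TET2 peaks in OPA1 and a series of 3606 peaks in 4 lists. Of the other OPA1-only peaks, 351 had their centre within 10 kb of a gene end and 607 lay outside genes and farther from them. By the same rule, deep peaks were 33.29% (29.92 to 36.83%) of the 712 DMSO-only TET2 peaks. In the TET2 list in OPA1 they were 34.12% of the 170 peaks found in both treatments. For EGR1, the other antibody of the series, they were 33.73% of 504 OPA1-only and 37.94% of 506 DMSO-only peaks. The 555 are called deep OPA1-only peaks below.

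THP-1 is a widely used monocyte-like line grown from human acute myeloid leukaemia. Its cells received either the solvent DMSO as control or OPA1 for 48 hours, where OPA1 stands for an added compound, as the submitters name it, and not for the mitochondrial gene. Chromatin of each treatment was precipitated with an antibody to EGR1 or to TET2, and an input without antibody was sequenced beside them, so that there were 6 libraries and 1 library per group. Peaks had been called in each ChIP library against the input of the same treatment. By its title, the series belongs to work on opioid receptors and on DNA demethylation by TET enzymes in leukaemia.

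No group had a replicate, so no test compares the treatments, and every interval below covers counting error only. The peaks were chosen by measured values, namely presence in the OPA1 list and absence from the DMSO list, and by distance from gene ends, so the tags and folds of that same list are given as description. The ChIP libraries held 19779007 to 19900311 filtered tags and the inputs 20038155 and 20075020. The caller's model gave fragments of 76 bp for TET2 in OPA1 and 64 bp for TET2 in DMSO, and the DMSO list held 891 TET2 peaks. The part of such library differences in which peaks appear in 1 list alone was not tested. The lists give no tags at sites without a called peak, and deep peaks of 1 treatment alone started at 8 tags in both TET2 lists. A peak missing from the DMSO list therefore does not show that TET2 was absent from that site in DMSO-treated cells. The lists hold no expression values against which the cell line could be checked.

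TET2 is a dioxygenase that oxidises 5-methylcytosine, the step that starts active and passive loss of DNA methylation. It has no DNA-binding zinc-finger domain of the CXXC type and reaches chromatin with partner proteins, and it is often mutated in myeloid leukaemia. Gene bodies are mostly methylated in animal cells and hold enhancers, promoters of shorter transcripts and non-coding RNA genes in their introns. EGR1, an immediate early transcription factor with zinc fingers, binds a GC-rich sequence.

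A few of the deep OPA1-only peaks lay on a transcript start inside the gene, and these are the peaks whose sequence can be shown. RefSeq's table for GRCh38.p14 gives a window from 250 bp before to 50 bp after each listed transcript start, and 10 of the 555 peaks (1.802%, 0.9816 to 3.285%) overlapped at least 1 of these windows. Together they covered 12 windows, which were 0.252% of the 4767 windows lying deep in protein-coding genes. Among DMSO-only TET2 peaks deep in genes, 3 of 237 (1.266%, 0.4314 to 3.655%) overlapped a window, so the intervals of both shares overlap. In 4 of the 10 peaks the start belonged to the gene that holds the peak, and in 6 it belonged to another listed gene inside it.

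The windows printed are 6 of the 12, 4 of a gene's own start and 2 of other genes' starts under the peaks with the most tags. They are written 5′ to 3′ on the strand of the transcript, with the bases inside the peak in capitals. The CD36 window is chr7:80638392-80638691 on the + strand, that of IL16 is chr15:81296720-81297019 on the + strand and that of ANKRD17 is chr4:73223008-73223307 on the - strand. The ASNS window is chr7:97872116-97872415 on the - strand. The start inside RARA belongs to LOC105371934 (chr17:40322475-40322774, - strand) and the start inside AHI1 to LOC124901407 (chr6:135323134-135323433, + strand).
CD36 start: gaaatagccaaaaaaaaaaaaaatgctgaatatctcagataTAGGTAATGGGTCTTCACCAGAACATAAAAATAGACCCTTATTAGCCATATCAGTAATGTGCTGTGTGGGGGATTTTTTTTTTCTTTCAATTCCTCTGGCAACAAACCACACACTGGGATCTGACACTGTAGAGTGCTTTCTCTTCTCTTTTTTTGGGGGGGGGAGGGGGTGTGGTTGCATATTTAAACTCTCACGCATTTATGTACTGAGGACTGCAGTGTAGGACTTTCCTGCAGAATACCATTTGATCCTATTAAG
IL16 start: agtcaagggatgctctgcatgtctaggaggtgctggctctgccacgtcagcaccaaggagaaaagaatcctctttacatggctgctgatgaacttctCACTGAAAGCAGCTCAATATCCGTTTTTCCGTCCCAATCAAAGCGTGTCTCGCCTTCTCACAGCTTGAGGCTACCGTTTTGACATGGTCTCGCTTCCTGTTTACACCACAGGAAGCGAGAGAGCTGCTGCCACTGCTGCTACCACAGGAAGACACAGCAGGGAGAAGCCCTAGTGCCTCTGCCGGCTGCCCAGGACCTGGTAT
ANKRD17 start: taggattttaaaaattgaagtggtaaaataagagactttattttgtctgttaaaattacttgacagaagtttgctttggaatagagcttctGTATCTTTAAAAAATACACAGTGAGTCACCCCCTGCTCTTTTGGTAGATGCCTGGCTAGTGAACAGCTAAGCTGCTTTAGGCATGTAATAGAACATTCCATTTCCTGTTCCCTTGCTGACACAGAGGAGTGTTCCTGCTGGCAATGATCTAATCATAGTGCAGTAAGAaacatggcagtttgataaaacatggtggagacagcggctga
ASNS start: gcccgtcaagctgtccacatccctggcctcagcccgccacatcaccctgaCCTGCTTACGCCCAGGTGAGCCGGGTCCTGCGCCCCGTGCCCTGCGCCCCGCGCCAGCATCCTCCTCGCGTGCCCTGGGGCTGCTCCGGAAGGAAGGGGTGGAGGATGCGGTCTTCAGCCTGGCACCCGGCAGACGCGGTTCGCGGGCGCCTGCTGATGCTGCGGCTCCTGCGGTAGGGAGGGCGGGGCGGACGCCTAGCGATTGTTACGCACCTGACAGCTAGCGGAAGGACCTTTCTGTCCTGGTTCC
LOC105371934 start in RARA: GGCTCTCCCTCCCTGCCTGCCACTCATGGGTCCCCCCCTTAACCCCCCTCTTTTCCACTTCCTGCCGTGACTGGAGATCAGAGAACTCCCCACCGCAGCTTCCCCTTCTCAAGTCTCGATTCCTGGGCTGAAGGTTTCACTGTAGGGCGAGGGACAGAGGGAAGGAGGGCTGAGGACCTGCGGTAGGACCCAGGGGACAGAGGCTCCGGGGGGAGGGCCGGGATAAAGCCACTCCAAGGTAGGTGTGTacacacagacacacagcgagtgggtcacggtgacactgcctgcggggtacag
LOC124901407 start in AHI1: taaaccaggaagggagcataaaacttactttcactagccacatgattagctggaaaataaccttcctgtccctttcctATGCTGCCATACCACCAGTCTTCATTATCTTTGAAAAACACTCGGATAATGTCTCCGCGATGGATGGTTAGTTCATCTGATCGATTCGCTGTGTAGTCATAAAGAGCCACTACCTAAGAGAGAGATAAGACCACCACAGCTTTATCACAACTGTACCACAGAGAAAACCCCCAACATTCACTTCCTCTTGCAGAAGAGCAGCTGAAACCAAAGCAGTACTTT

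CD36 encodes a scavenger and fatty acid receptor of monocytes and macrophages. Its peak (chr7:80638433-80638829) held 16 tags (exact Poisson 95% interval 9.15 to 26) at a fold of 6.67 over local background. The summit lay 83 bp after the printed start, in a window with a GC content of 39.7% and 1 CG dinucleotide. IL16 encodes a cytokine that attracts CD4+ cells, and its peak (chr15:81296817-81297064) held 11 tags (5.49 to 19.7) at a fold of 11.66. The summit was 78 bp before the start of a shorter IL16 transcript, and the window held 9 CG dinucleotides. ANKRD17 encodes an ankyrin-repeat protein, and its peak (chr4:73223049-73223216) rested on 8 tags (3.45 to 15.8) at a fold of 11.94.

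ASNS encodes asparagine synthetase, the enzyme whose product asparaginase therapy removes in leukaemia. Its peak (chr7:97872114-97872365) held 10 tags (4.8 to 18.4) at a fold of 12.81. The ASNS window had the highest CG content of the printed set, with 27 CG dinucleotides and a GC content of 69.7%. Across the 4767 windows deep in genes the median was 5 CG dinucleotides and a GC content of 50%, and across all 35116 windows it was 14 and 58.7%. The printed starts thus ranged from CG-poor, as at CD36 and ANKRD17 with 1 each, to CG-rich.

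RARA encodes the retinoic acid receptor alpha, which is fused to PML in acute promyelocytic leukaemia. The peak on the start inside it (chr17:40322527-40322825) held 17 tags at a fold of 8.89, and a DMSO TET2 peak of 11 tags lay 34 bp beyond its edge. The RARA peak is OPA1-only by the rule of shared bases and is the closest of the 555 to a DMSO peak. AHI1, a ciliary gene that is also expressed in blood stem cells, held a peak of 23 tags (14.6 to 34.5) at a fold of 11.66. The other starts of listed genes under deep OPA1-only peaks lay inside ITPR1, BST1, SORBS2 and ADGB.

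The motifs of 4 factors were searched on both strands of the windows, and a match is a description of letters and not a site. The EGR1 motif GCGTGGGCG was in none of the 12 windows under the peaks and in 0.399% of the windows deep in genes. The PU.1 motif GAGGAAGT was in the AHI1 window and in 3.04% of the deep windows. The AP-1 motif TGANTCA was in the ANKRD17 and BST1 windows and in 11.3% of the deep windows. The CRE motif TGACGTCA was in the SORBS2 window and in 0.881% of the deep windows. The matches in AHI1 and ANKRD17 lay inside the peak, and those in BST1 and SORBS2 lay in the part of the window outside it. With 12 windows these counts say nothing about a motif's part in the peaks.

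Most deep OPA1-only peaks were small. The number of tags, which is the raw count of reads in the peak, ran from 8 to 124 with a median of 11 and quartiles of 9 and 15. In all, 234 of the 555 (42.16%) rested on at most 10 tags, 212 on 11 to 15, 58 on 16 to 20 and 51 (9.189%) on over 20. The fold over local background ran from 3.59 to 25.31 with a median of 11.27, and the median length was 248 bp (106 to 1828 bp). The caller's false discovery rate (FDR), which it estimates from exchanged ChIP and input, was at most 5% in 441 peaks (79.46%, 75.9 to 82.61%). It was 0 in 19 peaks, which had a median of 22 tags.

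**Figure D1:**
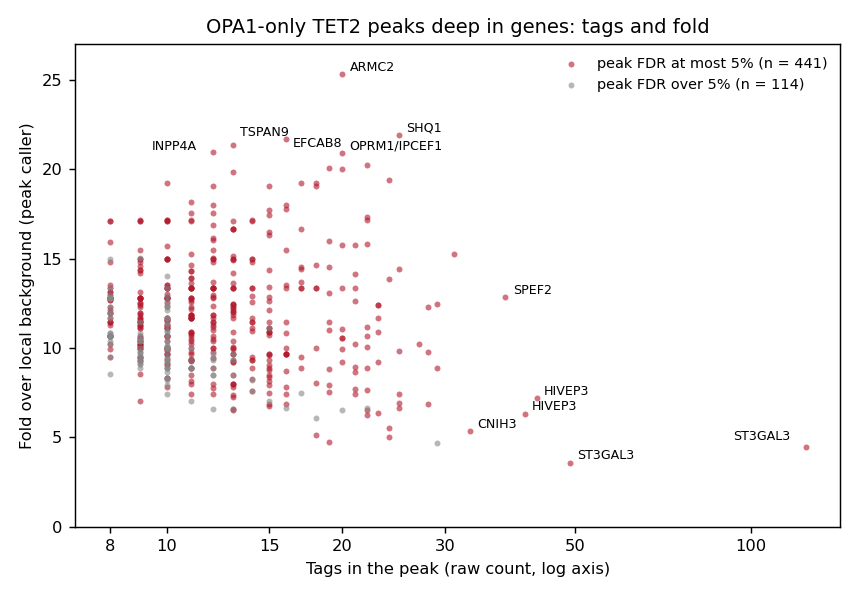
Tags per peak (horizontal, raw count on a log axis) and fold over local background (vertical) of the 555 deep OPA1-only TET2 peaks, 1 point a peak, red where the caller's FDR was at most 5% (441 peaks) and grey where it was higher (114 peaks). The 6 highest folds, led by ARMC2 at 25.31, came with 12 to 25 tags, and of the 6 peaks with the most tags, led by ST3GAL3 with 124, all but SPEF2 had folds of 7.18 or less.

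The highest folds were spread over genes of unrelated function. The peak in ARMC2 (chr6:108896161-108896478), a gene of the sperm flagellum, had the highest fold of the 555 at 25.31 with 20 tags (12.2 to 30.9). SHQ1, an assembly factor of H/ACA ribonucleoproteins, followed at a fold of 21.91 (chr3:72756905-72757310) and had 25 tags (16.2 to 36.9). EFCAB8, named for its EF-hand domain, had a fold of 21.66 from 16 tags. These 3 peaks were 298 to 406 bp long.

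The next folds were 21.35 in the tetraspanin gene TSPAN9 from 13 tags and 20.95 in INPP4A, a phosphoinositide 4-phosphatase gene, from 12 tags. A peak shared by OPRM1, the mu opioid receptor gene, and the overlapping gene IPCEF1 (chr6:154169425-154169805) had a fold of 20.88 from 20 tags (12.2 to 30.9). It lay 15119 bp from the nearest gene end. BCAS3, LPP, ADGRL3, RBM47, ATG13 and RIPOR2 completed the 12 highest, with folds of 19.25 to 20.21 and 13 to 24 tags. LPP encodes a focal adhesion protein, ADGRL3 a latrophilin receptor, RBM47 an RNA-binding protein and ATG13 a starter of autophagy. In all, these peaks included, 65 of the 555 (11.71%) reached a fold of 15 and 9 reached 20.

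The peaks with the most tags had low folds. ST3GAL3, a sialyltransferase gene on chromosome 1, held the peak with 124 tags (103 to 148) at a fold of 4.44 (chr1:43797828-43799655), a peak with 49 tags at 3.59 and one with 19 tags at 4.76. HIVEP3, a zinc-finger transcription factor gene on the same chromosome, held peaks of 43 tags at a fold of 7.18 and 41 tags at 6.31, whose centres were 652 bp apart. Between the ends of HIVEP3 and ST3GAL3 (chr1:41506365-43931159, 2.42 Mb) the TET2 list in OPA1 had 7 peaks with a median of 49 tags and a median fold of 5.33. The TET2 list in DMSO had 5 peaks in the same stretch, with 32 to 72 tags and a median fold of 6.17, against a median fold of 12.01 in that whole list. The EGR1 list in DMSO had 2 peaks there, with 12 and 50 tags and a median fold of 6.46 against 11.86 in that whole list, and the EGR1 list in OPA1 had none. Many tags at a low fold thus marked the TET2 peaks of this stretch in both treatments. For EGR1 the same held for 1 peak alone, with 50 tags at a fold of 4.77 in DMSO. Of the DMSO TET2 peaks, 4 lay in HIVEP3 and none in ST3GAL3.

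Outside that stretch the largest peaks by tags were in SPEF2, a sperm flagellum gene, with 38 tags at a fold of 12.84, and in CNIH3, an AMPA receptor auxiliary subunit gene, with 33 tags at 5.33. EXT1, which makes heparan sulfate, had 31 tags at a fold of 15.23 and an FDR of 0. TRIO had 29 tags at a fold of 4.67 and an FDR of 5.3%. CPA6 and UBASH3B, a phosphatase gene of T cell receptor signalling, also had 29 tags each, at folds of 8.89 and 12.44, and PCNX2, SASH1 and ST3GAL4 had 28 each at folds of 6.84 to 12.3. Of the 8 peaks with a fold under 6, 3 were those of ST3GAL3 and the others lay in CNIH3, TRIO, PLCXD3, DPYSL2 and ENPP2, and their median was 26.5 tags.

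The rule's limits cut through like peaks. Just inside 10000 bp from a gene end were the peaks in MGAT1 at 10228.5 bp with 15 tags, HPS3 at 10309.5 bp with 13 and DSCC1 at 10395 bp with 11. Just outside were those in CCNYL1 at 9993.5 bp with 11 tags, PEX14 at 9745 bp with 19 and DDB2 at 9494.5 bp with 8. The closest DMSO TET2 peaks that did not overlap lay 34 bp away in RARA, 155 bp in DRC10, 252 bp in SYT2, 559 bp in PCED1B and 801 bp in LONP2, with 10 to 15 tags each. In all, 11 of the 555 peaks had a DMSO TET2 peak centre within 10 kb. The median peak lay 41741.5 bp from the nearest gene end, 118 peaks (21.26%) lay over 100 kb away and 7 over 500 kb.

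The tags of the deep OPA1-only peaks were close to those of the other OPA1-only peaks. The median was 12 tags and the median fold 10.81 near gene ends, and 11 tags and 10.98 far from genes, and the share with an FDR of at most 5% was 80.34% and 77.27% there. The 58 deep TET2 peaks present in both treatments were larger in OPA1, with a median of 19.5 tags, a median length of 318 bp and 91.38% at that FDR. The 237 deep DMSO-only peaks had a median of 9 tags and 184 bp in their own list. In that list 26 of them (10.97%) had an FDR of at most 5%. The FDR of each list comes from its own ChIP and input, so the shares of the OPA1 and DMSO lists are not on a common scale.

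The peaks lay in 517 genes, which were 4.79% of the 10786 protein-coding genes that have any sequence more than 10 kb from all gene ends. Deep DMSO-only TET2 peaks lay in 2.12% of the same genes. Of the 555, 6 lay in 2 overlapping genes each. A single peak was held by 477 genes, 2 peaks by 36 genes and 3 peaks by 4 genes. The 4 were CNIH3, ST3GAL3, SCHIP1 and the read-through gene IQCJ-SCHIP1, of which the last pair share the same 3 peaks.

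**Figure D2:**
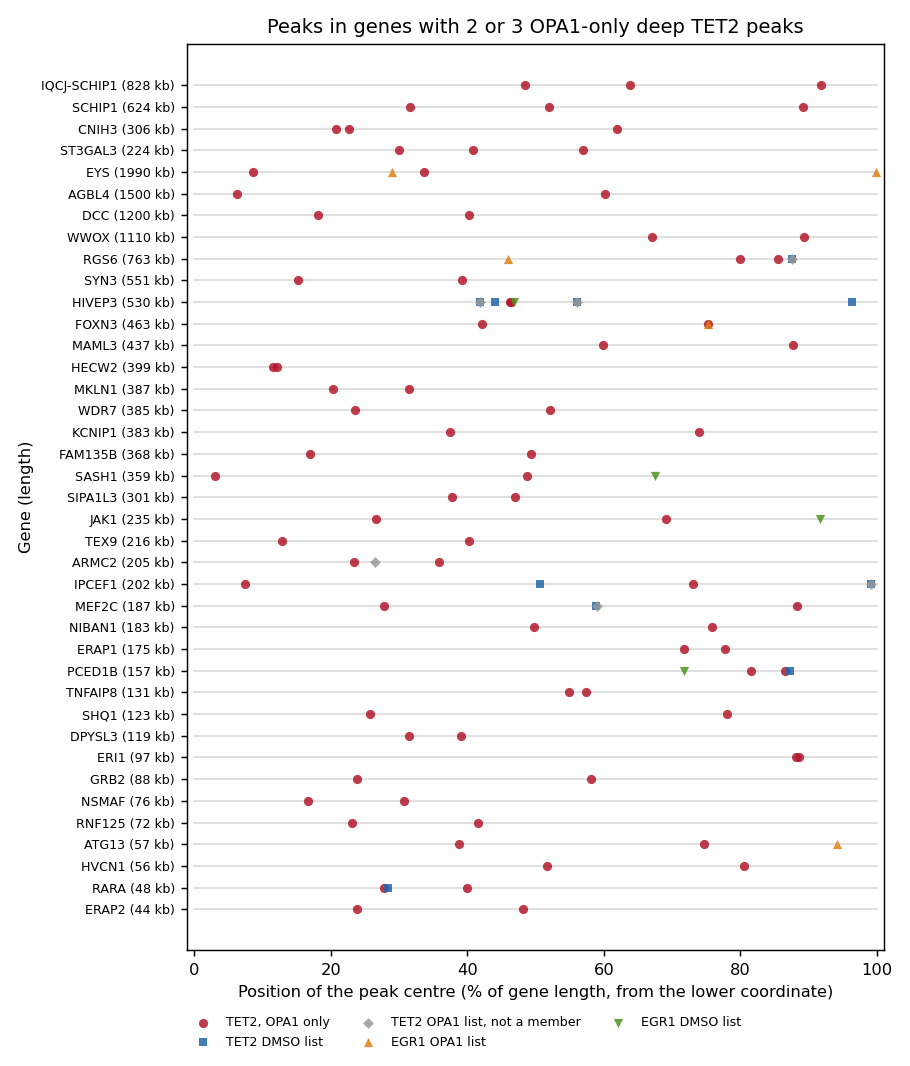
Position of each peak centre along 39 of the 40 genes with 2 or 3 deep OPA1-only TET2 peaks (horizontal, percent of the gene's length from its lower coordinate), with the genes in rows by number of peaks and length. Red circles are the deep OPA1-only peaks, and the other symbols are the remaining TET2 peaks and the EGR1 peaks of each treatment. Most genes hold red circles alone, and close pairs stand out in HIVEP3, HECW2 and ERI1.

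Several of the 40 genes held a close pair. In ERI1, an RNA exonuclease gene, the centres were 441.5 bp apart and the peaks had 13 and 11 tags. In HECW2, a ubiquitin ligase gene, they were 2056 bp apart with 21 and 19 tags. TNFAIP8, an apoptosis regulator gene induced by TNF, had peaks of 19 and 9 tags 3222 bp apart. In CNIH3 the closest 2 of 3 peaks were 5372.5 bp apart. In all, 23 of the 555 peaks had another OPA1 TET2 peak within 10 kb.

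The shortest genes with 2 peaks were ERAP2, RARA, HVCN1 and ATG13. ERAP2 and the overlapping ERAP1, the aminopeptidases that trim peptides for class I presentation, shared both of their peaks, with 9 and 10 tags. RARA held the peak of 17 tags described above and another of 10 tags (chr17:40328388-40328638) at a fold of 10. HVCN1, the proton channel gene of phagocytes, had 11 tags in each of its peaks. ATG13 had 24 tags at a fold of 19.4 (chr11:46639509-46639799) and 10 tags at 12.12. In ARMC2 and SHQ1 the peaks with the highest folds of all each had a partner, with 23 and 10 tags.

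Among signalling and regulatory genes with 2 peaks, JAK1, the kinase of interferon and cytokine receptors, had 9 and 10 tags. GRB2, the adaptor between receptor tyrosine kinases and RAS, had 12 and 10. MEF2C, a transcription factor of monocyte differentiation, had 13 and 9, and RGS6, a G protein regulator, had 11 and 21. NSMAF, a factor of TNF-induced sphingomyelinase, had 11 and 15, and RNF125, a ubiquitin ligase of antiviral sensing, had 11 and 8. FOXN3 had 13 and 10 tags, and MAML3, a Notch coactivator, had 10 and 12 with a fold of 18.01 at the latter. Except for the second peak in RGS6, these peaks each rested on 15 tags or fewer. Further genes with a pair held 8 to 17 tags a peak except SASH1, with 28 and 10, and IPCEF1, with the OPRM1 peak and one of 12. They were AGBL4, DCC, DPYSL3, EYS, FAM135B, KCNIP1, MKLN1, NIBAN1, PCED1B, SIPA1L3, SYN3, TEX9, WDR7 and WWOX.

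Long genes hold more deep sequence, so rates were taken per Mb of sequence over 10 kb from all gene ends. The median length of the 517 genes was 185402 bp (95% interval from order statistics 157582 to 204619 bp), against 59586 bp for all 10786. The longest were RBFOX1 at 2473620 bp and PTPRD at 2298757 bp, an RNA-splicing factor and a receptor phosphatase of neurons, followed by DLG2, CSMD1, EYS, PCDH15 and NRXN3. Of the 20 longest genes, 11 held a peak. The shortest were DSCC1 at 21919 bp, YWHAB at 22828 bp, LYPD5, DRC10 and MKRN1. Genes with other kinds of deep peak had medians of like size, from 173917 bp for TET2 peaks in both treatments to 239909.5 bp for DMSO-only EGR1 peaks.

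Per Mb, deep OPA1-only peaks were fewest in the longest genes. The rate over all deep sequence was 0.58 peaks per Mb (exact Poisson 95% interval 0.532 to 0.63). It was 0.867 per Mb (0.639 to 1.15) in genes of 20 to 50 kb, 0.688 in genes of 50 to 100 kb, 0.664 in genes of 100 to 200 kb and 0.612 in genes of 200 to 500 kb. In the 314 genes over 500 kb it was 0.324 (0.257 to 0.402), although 23.2% of these genes held a peak against 1.02% of the shortest class. The interval of the longest class lay below those of the other 4 classes, and the intervals of the other 4 overlapped each other.

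**Figure D3:**
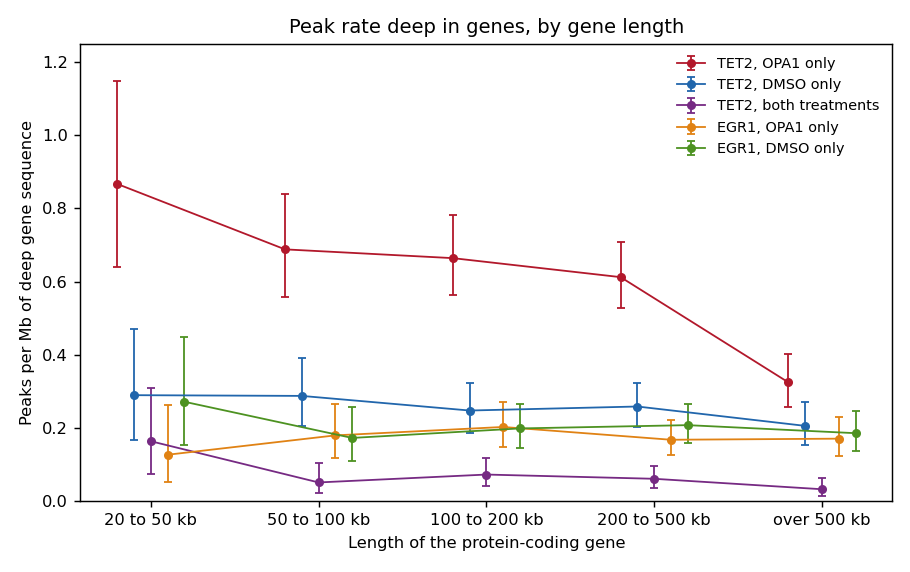
Peaks per Mb of deep gene sequence (vertical) in 5 classes of gene length (horizontal), for deep peaks of each kind, with exact Poisson 95% intervals as bars. The red points, deep OPA1-only TET2 peaks, fall from 0.867 in genes of 20 to 50 kb to 0.324 in genes over 500 kb, TET2 peaks of both treatments from 0.163 to 0.0316 and DMSO-only TET2 peaks from 0.289 to 0.205.

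The rate in genes of 20 to 50 kb was 2.68 times that in genes over 500 kb (95% interval 1.84 to 3.87, from an exact binomial interval on the 48 and 82 peaks). For the deep TET2 peaks of both treatments the same ratio was 5.15 (1.76 to 15.3), from 9 and 8 peaks in the OPA1 list. For deep DMSO-only TET2 peaks it was 1.41 (0.751 to 2.51), for OPA1-only EGR1 peaks 0.745 (0.283 to 1.67) and for DMSO-only EGR1 peaks 1.46 (0.759 to 2.66). The interval of the OPA1-only ratio overlaps those of the other TET2 ratios, and their differences were not tested. Split by size, a choice made after the values were seen, the ratio was 4.96 (2.74 to 9.02) for peaks with over 11 tags and 1.74 (1.01 to 2.88) for those with at most 11. The intervals of this pair overlap too, and the difference was not tested.

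Within genes, cut into 5 equal parts, the part at the 5′ end had the lowest rate. Strand was known for the genes of 457 of the 555 peaks. The rates from the 5′ end were 0.456, 0.706, 0.509, 0.568 and 0.601 per Mb in the successive parts. The interval of the next part after the 5′ one (0.59 to 0.839) just overlapped that of the 5′ part (0.343 to 0.593) and overlapped those of the other 3. Deep DMSO-only TET2 peaks ran from 0.197 to 0.27 per Mb over the 5 parts, with their lowest value in the part after the 5′ one.

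By chromosome, most rates lay near the overall rate. The highest were 1.04 per Mb (0.555 to 1.78) on chromosome 22, 0.926 (0.673 to 1.24) on chromosome 8 and 0.83 (0.608 to 1.11) on chromosome 5. The lowest on an autosome were 0.348 (0.19 to 0.584) on chromosome 9 and 0.427 (0.268 to 0.647) on chromosome 10. Of these 5, only chromosome 8 had an interval above 0.63, the upper bound of the overall rate. The peaks with over 20 tags were most often on chromosomes 1 and 6, with 10 each, and on chromosome 8, with 7.

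Chromosome X held none of the 555 in 39.3 Mb of deep sequence, where 22.8 would lie at the overall rate. The exact Poisson 95% interval of this count of 0 reaches 0.0939 peaks per Mb. The TET2 list in OPA1 had 13 peaks on X, of which 10 were OPA1-only, 2 of them near gene ends and 8 far from genes. The DMSO-only TET2 peaks and the EGR1 peaks of 1 treatment alone also had none deep in a gene on X.

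**Figure D4:**
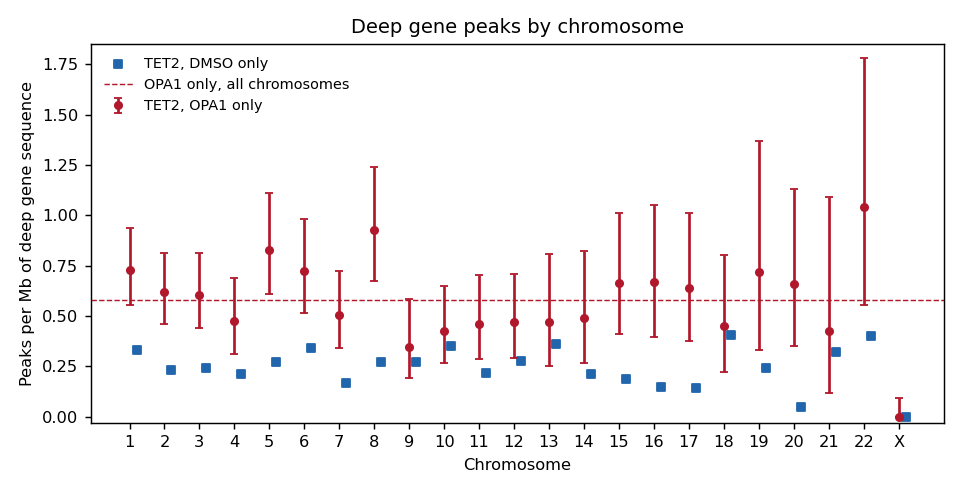
Deep TET2 peaks per Mb of deep gene sequence (vertical) by chromosome (horizontal), with red circles and exact Poisson 95% bars for OPA1-only peaks, blue squares for DMSO-only peaks and a dashed line at the overall OPA1-only rate of 0.58. Chromosomes 22, 8 and 5 have the highest red points, and X is at 0 for both.

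EGR1 peaks rarely touched the deep OPA1-only peaks. Both antibodies' lists of 1 treatment rest on a common input library, whose part in any shared place was not tested. Of the 555, 1 (0.18%, 0.0318 to 1.01%) overlapped an EGR1 peak in OPA1 and 1 overlapped an EGR1 peak in DMSO. The first lay in FOXN3, a forkhead repressor gene, where the TET2 peak (chr14:89504664-89504893) had 10 tags at a fold of 17.14 and the EGR1 peak (chr14:89504765-89504922) had 8 tags (3.45 to 15.8) at 12.37. The other lay in RUFY1, an endosome gene, with 9 TET2 tags at a fold of 9.52 and 8 EGR1 tags in DMSO at 13.49. These EGR1 peaks had caller FDRs of 21.89% and 19.02%. None of the 170 OPA1-only and 192 DMSO-only EGR1 peaks deep in genes had a caller FDR of at most 5%. Of the 58 deep TET2 peaks in both treatments, 8 (13.8%, 7.16 to 24.9%) overlapped an EGR1 peak in OPA1 and none overlapped one in DMSO. Overlap was also rare in the sets most like the 555. Of the 237 deep DMSO-only TET2 peaks, 0 overlapped an EGR1 peak in OPA1 and 2 (0.844%) one in DMSO. Of the 351 OPA1-only TET2 peaks near gene ends, 3 (0.855%) and 1 (0.285%) did.

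Of the 517 genes, 30 (5.8%) also held an EGR1 peak in OPA1 anywhere between the gene's ends, against 1.87% of all 10786 genes, and 22 (4.26%) held one in DMSO, against 2.01%. Given the gene lengths alone, the length class shares of genes with none of the 555 peaks would give 21.2 and 26.7 genes. The nearest pairs after FOXN3 were in BMPR1B, a BMP receptor gene, 1819.5 bp apart, in ATG13, 11068 bp apart, and in RASSF3, 14150.5 bp apart. The EGR1 peaks there had 8, 13 and 8 tags and caller FDRs of 22.31%, 22.22% and 23.62%. CDKL2, ARFGEF2, ACOXL, TMEM132B, SSH1, IL19, UBASH3B and DPF3 followed at 20408.5 to 52276.5 bp. Genes with a deep OPA1-only TET2 peak and EGR1 peaks in both treatments were DLG2, DPP10, FHIT and PDE7B, of which the first 3 are over 1 Mb long.

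**Figure D5:**
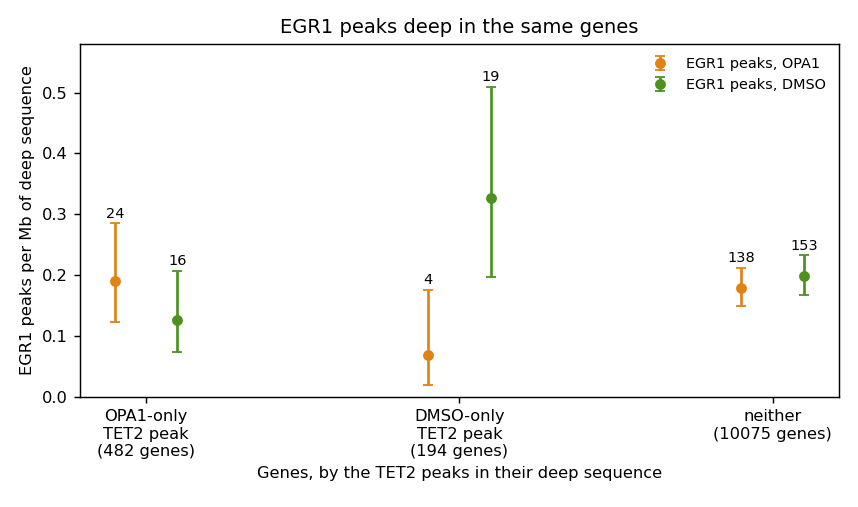
EGR1 peaks per Mb of deep sequence (vertical, exact Poisson 95% bars, number of peaks above each) in genes with deep OPA1-only TET2 peaks alone, with deep DMSO-only TET2 peaks alone, or with neither (horizontal), orange for EGR1 in OPA1 and green for EGR1 in DMSO. The first group has 24 EGR1 peaks in OPA1 and 16 in DMSO, the second 4 and 19, and the lists of a treatment share an input. None of these deep EGR1 peaks had a caller FDR of at most 5%.

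With length set aside by rates per Mb, the 482 genes with deep OPA1-only TET2 peaks and no deep DMSO-only one held 0.191 OPA1 EGR1 peaks per Mb (0.123 to 0.285). They held 0.127 DMSO EGR1 peaks per Mb (0.0729 to 0.207). In the 194 genes with deep DMSO-only TET2 peaks alone the values were 0.0688 (0.0187 to 0.176) and 0.327 (0.197 to 0.51), and in the 10075 genes with neither 0.179 and 0.198. The rates in genes with neither fell inside the intervals of the 482 genes for both treatments.

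TET2 peaks in DMSO were found elsewhere in 51 of the 517 genes (9.86%), against 3.41% of all 10786. The length class shares of genes with none of the 555 peaks would give 36.1 genes. In 35 of the 51 genes at least 1 DMSO TET2 peak was a deep DMSO-only peak. Besides RARA, DRC10, SYT2, PCED1B and LONP2, the nearest lay 1582.5 bp away in RAB27A, a GTPase gene of secretory granules, and 5364 bp away in PCDH15, a protocadherin gene. ANKRD36C, KCNA2 and RAB3IL1 followed at 7983.5 to 10899 bp.

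The genes were next read by function, with 19 lists of 922 names, of which 782 genes have deep sequence. The lists were chosen with earlier results of these data known. The median length of the listed genes was 150596 bp, against 59586 bp for all 10786 genes with deep sequence. Peaks lay in 93 of the 782 genes (11.9%), against 4.79% of all 10786. The part of gene length in this share was not tested. The 102 peaks in the listed genes made 0.477 per Mb, against 0.58 over all genes. At the rates of each length class 96.1 would lie there. No list was tested, and the number in brackets after a list is its count of peaks at the length class rates.

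Of the genes of opioid, G protein and cAMP signalling, 8 of 50 held 9 peaks (0.759 per Mb, 0.347 to 1.44), where the length classes give 5.59. OPRM1 held the highest fold, described above. ADCY2 and ADCY7, adenylyl cyclases, which make cAMP, had peaks of 20 and 11 tags at folds of 10.57 and 11.85. PDE7B and PDE8A, which degrade cAMP, had 9 and 8 tags, and PRKAR1A, the regulatory subunit of protein kinase A, had 12 at a fold of 13.33. RGS7 had 11 tags and RGS6 the pair given above.

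Of the DNA methylation genes, 1 of 19 held a peak (0.659), TET3, the paralogue of TET2, with 10 tags (4.8 to 18.4) at a fold of 10. Of the blood transcription factor genes, 3 of 25 held 5 peaks (2.53), 2 each in RARA and FOXN3 and 1 in TCF12 with 8 tags. Of the leukaemia drivers and stem cell genes, 2 of 40 held a peak (3.31), CUX1 with 8 tags and RUNX1T1, the fusion partner of RUNX1, with 13. CD36 was the only one of 23 monocyte, macrophage and granulocyte genes with a peak (0.421), and FLT1, with 10 tags, the only one of 17 EGR1 targets and cofactors (0.68).

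Of the innate sensing and interferon genes, 3 of 36 held 4 peaks, 2.94 per Mb (0.801 to 7.52) in 1.36 Mb, where the length classes give 0.958. These were IRAK2, a kinase of Toll-like receptor signalling, with 12 tags at a fold of 11.66, NLRP3, the inflammasome sensor, with 13 at 9.23, and JAK1. No peak lay in the 22 apoptosis genes, where the length classes give 0.963. Of the 24 genes of other lineages, EBF1, a B cell factor, held 1 peak (1.73) of 12 tags at a fold of 16.9.

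Lipid and calcium signalling genes held 6 peaks in 60 genes (8.12). Of these, 4 lay in genes named for inositol polyphosphate phosphatases: INPP4A, INPP4B, INPP5A and INPP5D with 10 to 15 tags. INPP5D encodes SHIP1, a brake on growth factor signalling in blood cells. ITPR1, the calcium release channel, had 10 tags.

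MAP kinase and receptor tyrosine kinase genes held 6 peaks in 64 genes (6.32). MAP2K1, a kinase of the ERK cascade, had a peak of 19 tags at a fold of 16. RASA2 and RASAL2, which switch RAS off, had 20 and 12 tags. INSR and ROR2 had 9 and 8. Chromatin regulators held 6 peaks in 56 genes (4.72), among them ARID1B, CHD9, HDAC4, HDAC9 and KDM4C, with 10 to 18 tags. HDAC4 and HDAC9 are histone deacetylases and KDM4C removes histone methyl groups.

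The lists of very long genes held the most peaks. Of 40 common fragile site and very long genes 17 held 20 peaks, at 0.418 per Mb (0.256 to 0.646), with 15.8 from the length classes. FHIT and WWOX are textbook fragile genes among them, and WWOX had 8 and 11 tags. Cell adhesion and synapse genes held 12 peaks in 66 genes at 0.233 per Mb (0.12 to 0.406), with 18.7 from the length classes, among them NRXN3, NLGN1 and TENM2 with 8 to 10 tags. ADGRL3 stood apart from them with 20 tags at a fold of 20. Axon guidance genes held 7 peaks in 33 genes (4.46), led by EFNA5, an ephrin ligand gene, with 19 tags, and with 2 in the netrin receptor gene DCC.

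Ubiquitin ligase genes held 5 peaks in 56 genes (5.26), lysosome, autophagy and membrane traffic genes 4 in 55 (6.13) and cell cycle and DNA repair genes 3 in 43 (3.28). ATM, the DNA damage kinase, had 9 tags at a fold of 17.14, and the helicase gene WRN had 10 at 9.06. CUL1, the scaffold of SCF ubiquitin ligases, had 12 tags at a fold of 15.48. By symbol, the families given here are examples from a longer set. Genes starting with RAB held 6 peaks in 61 genes (1.58 per Mb, 0.581 to 3.44), the highest rate of that set. Potassium channel genes starting with KCN held 8 in 60. Zinc-finger genes starting with ZNF held 5 in 307, and ABC transporter genes held none in 38. These family counts were 2.32, 5.67, 7.79 and 2.11 at the length class rates. Other families lay above this number, such as TBC1D with 3 peaks (1.71), or below it, such as CDH/PCDH with 3 (5.4).

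Some deep OPA1-only peaks lay on other annotated genes inside the host gene. Long non-coding RNA genes overlapped 48 of the 555 (8.649%, 6.585 to 11.28%), against 17 of 237 (7.173%, 4.526 to 11.19%) of the deep DMSO-only peaks. Pseudogenes overlapped 7, among them EIF4BP5 in PHKB with 14 tags at a fold of 17.08 and RPL36AP7 in GRB2 with 12 tags at 11.19. Reads in pseudogenes can come from their near-identical copies, so these peaks are uncertain in place. The others were in SLC8A1, C1QTNF3, KCNQ5, ZNF506 and RALGAPB, and a small nucleolar RNA gene lay under the peak in NUCKS1.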

How the data were processed

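MACS 1.4.2 had called the peaks of each ChIP library against its treatment's input, with 1e-05 as the p-value limit, 200 bp as band width and 1 tag kept per position, per the file headers. The submitters' processing notes list Bowtie2 2.2.6 and HOMER, whose role they do not state, and hg38 (GRCh38) as the build. The deposited values of a peak are its raw count of tags, its score, which MACS computes as a negative log10 of the p-value times a constant, its fold over local background (a ratio) and its FDR in percent. They are the authors' values. Folds, scores and FDRs were computed for each list on its own. Shares by FDR of different lists, where given side by side, are therefore not on a common scale.

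Genes came from a RefSeq table of GRCh38.p14 with 19974 protein-coding genes, 15812 with a strand, and start windows were from 250 bp before to 50 bp after each listed start. Overlap meant at least 1 bp. A few genes and 1 gene list are not reported here. Exon and intron classes and the sequence of peaks away from start windows were not analysed here. Rates divide peaks by the Mb of protein-coding genes over 10 kb from every protein-coding gene end (958 Mb in all), and a peak in 2 genes counts in each of their length classes. A number at length class rates is the sum over a group's genes of deep Mb times the rate of the gene's length class. For genes with EGR1 or DMSO TET2 peaks it is the sum of the class shares among genes without a deep OPA1-only peak. Shares have Wilson, tags and rates exact Poisson 95% intervals, and these cover counting error only, since reads without molecular identifiers are not independent molecules. Python 3.11.15, pandas 2.3.3, NumPy 2.4.6 and SciPy 1.17.1 were used. The placement rule and the Mb of deep sequence were checked at random positions of some chromosomes, and overlaps on made-up intervals.

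The genes named were drawn by rule from those with at least 2 of the peaks, those of the 12 highest folds and 12 largest tag numbers, the longest and shortest, those with the nearest EGR1 or DMSO TET2 peaks, those at the rule's limits and, as examples, list genes that hold a peak. AHI1 and the other hosts of start windows, pseudogene hosts and the HIVEP3 to ST3GAL3 stretch were picked once their values had been seen. The peaks and the 19 gene lists (921 of 922 names matched) were chosen with earlier results of these data known. Alternatives tried were an FDR of at most 5%, a fold of at least 10, a score of at least 100, other limits for shared peaks and for distance from gene ends, the summit in place of the centre, and the ends of every gene.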

Additional observations from a re-analysis of the deposited data

Results flagged for a closer look

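Deep in genes, peaks of 1 treatment alone were 318 more in OPA1 than in DMSO for TET2 (555 against 237), while for EGR1 they were fewer in OPA1, with a difference of -22 (170 against 192). These differences were noted because they have opposite signs. Deep peaks were 36.68% of the 1513 OPA1-only and 33.29% of the 712 DMSO-only TET2 peaks. For EGR1 they were 33.73% of the 504 OPA1-only and 37.94% of the 506 DMSO-only peaks. The TET2 counts thus differed between treatments in the whole lists as well as deep in genes. With 1 library per group no test of the contrast between EGR1 and TET2 was run, so the difference was not tested. In their own lists, 441 of the 555 and 26 of the 237 TET2 peaks had a caller FDR of at most 5%. None of the 170 and 192 EGR1 peaks did. FDRs of different lists are not on a common scale. The lists of each treatment share its input, and the TET2 libraries also differed in modelled fragment length, at 76 bp in OPA1 and 64 bp in DMSO.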

How the results depend on the processing

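With a DMSO peak within 1000 bp counted as shared, with sharing only where the overlap covered the larger part of the shorter peak, and with the summit in place of the centre, all 11 results stayed close to the reported values. With an FDR of at most 5%, 26 genes held several peaks and the median fold was 11.66. With a fold of at least 10, 20 genes held several, the median fold was 12.5 and 33 genes also held a DMSO TET2 peak. A score of at least 100 left 27 peaks in 28 genes, 0 of them with several, with medians of 21 tags and a fold of 17.08. Of these, 0 overlapped an OPA1 EGR1 peak, and 4, 2 and 3 genes also held an OPA1 EGR1, a DMSO EGR1 and a DMSO TET2 peak. A limit of 5000 bp from gene ends gave a share of 42.1%, a median gene length of 151100 bp and 2 peaks on an OPA1 EGR1 peak, and 20000 bp gave 28.29% and 226900 bp. These follow from the looser or stricter limit. Counting the ends of every gene, non-coding ones included, gave a share of 28.88%, 21 genes with several peaks and 14 with a DMSO EGR1 peak.

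The rate in genes of 20 to 50 kb over that in genes above 500 kb, with limits chosen after seeing the data, was 3.08 at an FDR of at most 5% and 2.53 at a fold of at least 10. It was 1.74 for peaks with at most 11 tags and 4.96 for those with over 11, against 2.68 for all, and the cause was not tested. At a median of 11 tags per peak, single peaks bear wide counting intervals. No paired analysis was possible because each group has 1 library and no result comes from a test.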
